A study of Homo sapiens with 22 samples.

Results

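Cluster 9 of the treatment experiment was a group of 1571 WM989 melanoma cells, taken by the cluster number that the authors' cell table gives to each of 40021 cells in 13 clusters. It was led by PRR9, CST1, MET, CST4, NMRK2, COL6A5 and SDC2, the 7 genes that name it here. The authors' table marks 4077 cells as primed, the state from which cells resist BRAF and MEK inhibition. No cluster 9 cell was among them, and the 34373 other non-primed cells served as the comparison. The clusters were drawn on the same counts, so gene level differences between cluster 9 and other cells are a description and carry no test.

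All cells came from WM989 A6-G3, a clonal derivative of a BRAF-mutant human melanoma line, into which lineage barcodes had been introduced by lentivirus. 2 wells were grown in parallel, each was split over 4 plates, and the plates were kept for 5 days without treatment, with TGFB1 at 5 ng/mL, with the TGFBR1 and TGFBR2 inhibitor LY2109761 at 4 µM (TGFBRi) or with the PI3K inhibitor GDC-0941 at 2 µM (PI3Ki). Droplet-based 3′ single-cell RNA sequencing then gave 1 library for each plate, 8 in all. The cell labels name the wells r1 and r2, while the sample labels name the replicates Mix and Primed. Which name belongs to which well was not settled, so r2 against r1 is 1 well against 1 well, and their starting populations cannot be told apart from other differences between them. All p-values for treatments measure only the spread between these parallel wells of 1 clone. Those for TGFBRi, with 1 library in the main fits of cluster 9 and of the other non-primed cells, borrow the spread of the other treatments.

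CST1 and CST4 encode secreted cystatins, inhibitors of cysteine proteases. MET is the receptor tyrosine kinase for hepatocyte growth factor and is known in melanoma as a route around BRAF inhibition. NMRK2 phosphorylates nicotinamide riboside on the way to NAD, COL6A5 is a chain of collagen VI, SDC2 is a heparan sulfate proteoglycan of the cell surface, and PRR9 is a proline-rich gene of the epidermal differentiation complex. TGF-beta acts through SMAD factors and is known in melanoma for raising matrix genes, and PI3K acts through AKT on growth and metabolism.

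The libraries held 3692 to 6273 cells and 70239657 to 122420544 unique molecular identifiers (UMIs, each a counted RNA molecule). Cluster 9 supplied 305378 to 12418435 UMIs per library. Its cells had a median of 13544.5 to 22897 UMIs by library, against 13118 to 21865.5 in the other non-primed cells, and the median was higher in cluster 9 in 8 of 8 libraries. Mitochondrial UMIs took 9.86 to 11.9% in cluster 9 and 10.3 to 11.4% in the others. Libraries shared 194 cell barcode sequences, which covered 388 cells, 23 of them in cluster 9. The TGFBRi r1 library held 19 cells of cluster 9 and was left out of the count fits, its other non-primed cells included.

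Cluster 9 took a larger share of r2 than of r1 under all 4 treatments, a larger share with PI3Ki and a smaller share with TGFBRi. In r1 it made up 66 of 4152 untreated cells (1.59%, exact binomial 95% interval 1.23 to 2.02), 116 of 5419 with TGFB1 (2.14%, 1.77 to 2.56), 19 of 5229 with TGFBRi (0.363%, 0.219 to 0.567) and 102 of 3862 with PI3Ki (2.64%, 2.16 to 3.20). In r2 it made up 219 of 3692 untreated cells (5.93%, 5.19 to 6.74), 378 of 5615 with TGFB1 (6.73%, 6.09 to 7.42), 114 of 6273 with TGFBRi (1.82%, 1.5 to 2.18) and 557 of 5779 with PI3Ki (9.64%, 8.89 to 10.4). The intervals cover counting error only. The r2 well thus supplied 80.7% of the cluster.

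**Figure D1:**
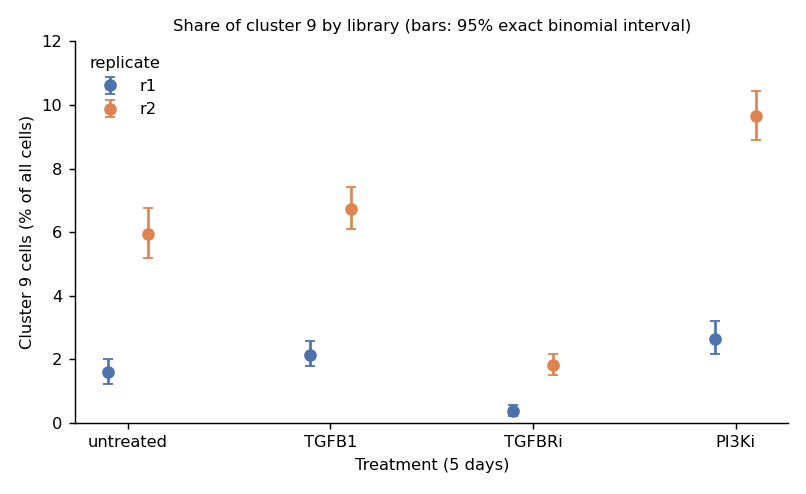
Share of cluster 9 among all cells (%, vertical axis) in each of the 8 libraries, by treatment (horizontal axis) and replicate (colour), with bars for the exact binomial 95% interval. The r2 point lies above the r1 point under each treatment, from 1.82 against 0.363% with TGFBRi to 9.64 against 2.64% with PI3Ki.

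The r2 share was 3.73 times the r1 share in untreated cells, 3.14 times with TGFB1, 5.0 times with TGFBRi and 3.65 times with PI3Ki. The difference was 4.35 ± 2.27 percentage points (SD, n = 4 treatments, range 1.45 to 7.0). An exact two-sided sign-flip permutation test gave p = 0.13, the smallest it can give with 4 pairs, and the 4 plates of a well are not independent wells. Against untreated cells of the same well, the share changed by -2.67 ± 2.04 percentage points with TGFBRi, by 2.38 ± 1.88 with PI3Ki and by 0.676 ± 0.176 with TGFB1 (SD, n = 2, no test). As ratios, TGFBRi gave 0.229 in r1 and 0.306 in r2, and PI3Ki gave 1.66 and 1.62.

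The TGFB1 ratios were 1.35 and 1.13. With TGFB1, 29.1% of r1 and 31.3% of r2 cells were marked as primed, against 0.647 to 4.47% in the other libraries, and no primed cell belonged to cluster 9. Among non-primed cells alone, cluster 9 took 1.63% of untreated and 3.02% of TGFB1 cells in r1, and 6.21% and 9.80% in r2, so the TGFB1 ratios rose to 1.86 and 1.58. Non-primed cells with UMIs of at least 2 of the 7 markers, counted without the cluster number after every cell was thinned to 5000 UMIs, made up 1.68 (untreated), 2.37 (TGFB1), 0.509 (TGFBRi) and 5.81% (PI3Ki) of non-primed cells in r1. In r2 they made up 5.67, 6.90, 2.67 and 13.2%. By this count PI3Ki was highest in both wells. By the cluster number PI3Ki took 2.66% of non-primed cells in r1 and 9.76% in r2, below TGFB1 in both wells, and TGFBRi took 0.372 and 1.90%. With PI3Ki all 7 markers rose in the other non-primed cells, where 1545 of 18360 genes did. The marker count is thus not independent of the treatment effect on the markers. The cells of a cluster are chosen by the counts that a treatment changes, so a treatment can move cells into or out of cluster 9 without changing their number.

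Each of the 7 markers was higher in cluster 9 than in the other non-primed cells of the same library in 8 of 8 libraries, as were 6.41% of 12909 genes at 1 CPM or more. Levels are CPM, UMIs summed over the cells of a group in a library and scaled to a total of 1000000, and a log2 ratio compares CPM + 1 within a library. Such sums cannot tell fewer cells with a transcript from less transcript per cell. In cluster 9, PRR9 was at 40.9 (untreated), 50.2 (TGFB1), 22.9 (TGFBRi) and 16.1 CPM (PI3Ki) in r1, and at 13.0, 51.3, 6.58 and 14.2 CPM in r2. In the other cells it lay between 0.297 and 10.3 CPM. The log2 ratio of PRR9 was 2.50 ± 1.12 (SD, n = 8 libraries), the highest of the genes at 20 CPM or more, and it ranged from 1.19 to 4.21.

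The cystatins were led by the PI3Ki libraries. CST1 stood in cluster 9 at 38.0 (untreated), 31.0 (TGFB1), 49.1 (TGFBRi) and 190.4 CPM (PI3Ki) in r1 and at 49.8, 29.5, 37.1 and 147.7 CPM in r2, against 2.50 to 38.6 CPM in the other cells, with a log2 ratio of 2.34 ± 0.86. CST4 stood at 11.5, 5.48, 16.4 and 70.5 CPM in r1 and at 24.3, 17.7, 24.5 and 79.0 CPM in r2, against 0.768 to 21.1 CPM, with a log2 ratio of 2.0 ± 0.89. The groups overlapped over the libraries for both genes, since the other cells of the PI3Ki libraries exceeded cluster 9 cells of some libraries. CST1 and CST4 are close paralogs, and how the authors' counting treated reads that match both was not examined, so each value is uncertain.

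MET had the smallest spread of the ratio among the 7 markers. It stood in cluster 9 at 38.0 (untreated), 14.6 (TGFB1), 45.8 (TGFBRi) and 37.7 CPM (PI3Ki) in r1, and at 64.4, 20.8, 89.7 and 60.2 CPM in r2. In the other cells it was at 3.30 to 14.6 CPM, and its log2 ratio was 2.06 ± 0.47 (SD, n = 8), from 1.08 to 2.60. The TGFB1 libraries were the lowest of their well in both cell groups.

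NMRK2 averaged 20.8 ± 9.20 CPM in cluster 9 and 5.22 ± 2.25 CPM elsewhere (SD, n = 8), with a log2 ratio of 1.73 ± 0.56, and its lowest cluster 9 values were the TGFBRi libraries at 9.82 and 5.98 CPM. COL6A5 averaged 34.9 ± 14.9 against 11.7 ± 8.03 CPM, with a log2 ratio of 1.63 ± 0.51. SDC2 averaged 24.5 ± 7.03 against 7.10 ± 2.80 CPM, with a log2 ratio of 1.67 ± 0.61. For SDC2 the lowest cluster 9 library, at 11.4 CPM, lay just under the highest of the other cells, at 11.7 CPM.

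**Figure D2:**
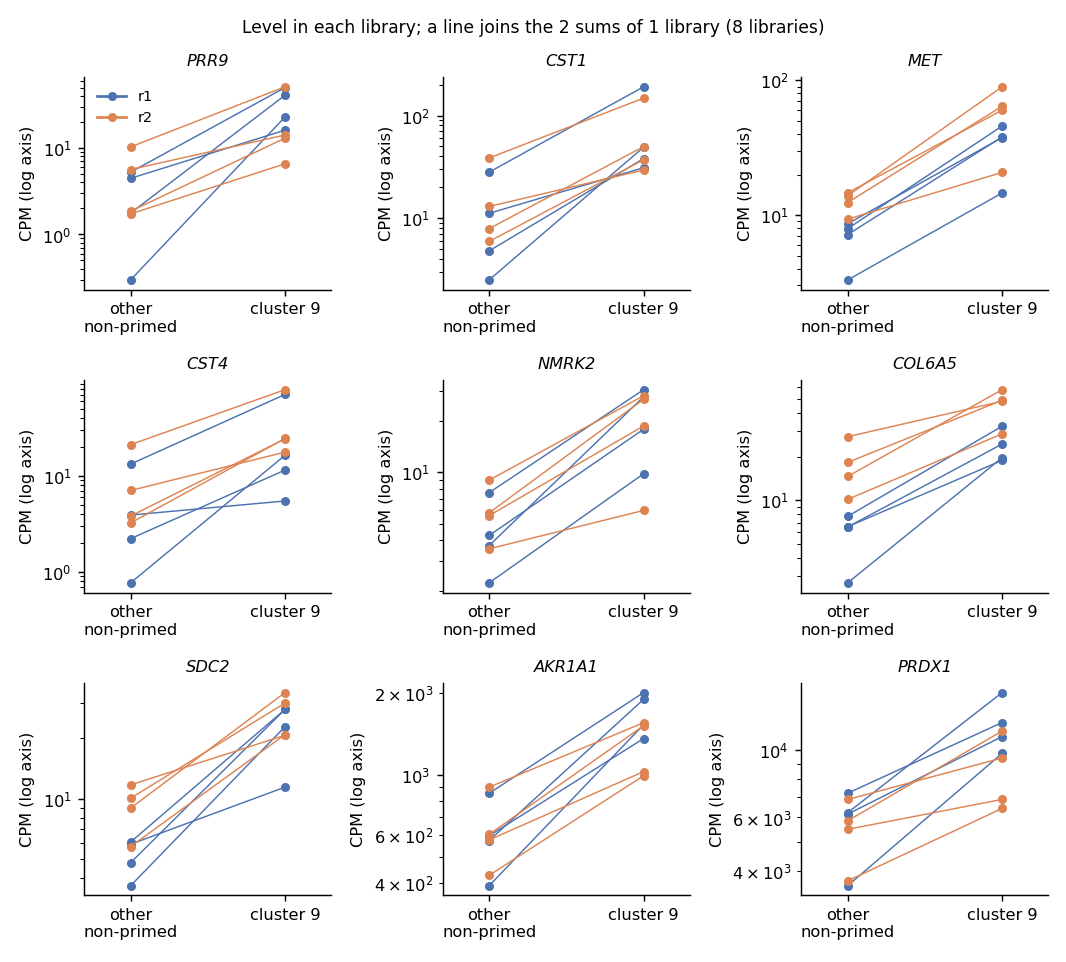
Level in CPM (log axis) of the 7 markers and of AKR1A1 and PRDX1 in the other non-primed cells (left) and in cluster 9 (right), with a line for each of the 8 libraries, coloured by replicate. Every line rises to the right, and for MET it rises by a log2 ratio between 1.08 and 2.60.

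Single cells of the cluster held few of these transcripts. After thinning to 5000 UMIs, CST1 was detected in 26.7% of cluster 9 cells, MET in 19.7%, COL6A5 in 17.8%, CST4 in 15.3%, NMRK2 in 11.3%, SDC2 in 10.6% and PRR9 in 7.96%. In the other non-primed cells the shares were 5.36, 4.40, 4.22, 2.83, 2.26, 3.12 and 1.30% in the same order. In primed cells they were 11.5, 2.86, 4.09, 9.01, 0.271, 7.51 and 1.23%, pooled over cells that came mostly from the TGFB1 libraries. As means over the 8 libraries, CST1 was detected in 4.30 ± 6.16% of primed and 5.36 ± 4.50% of other non-primed cells, CST4 in 2.83 ± 5.09 and 2.80 ± 2.55%, and SDC2 in 4.41 ± 2.96 and 3.19 ± 1.27%, so that these differed by less than the spread between libraries. Median depth before thinning was 19466 UMIs in cluster 9, 16673 in the other non-primed and 11221 in primed cells. Outside the cluster the least detected marker was NMRK2 among primed cells and PRR9 among the other non-primed cells.

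At full depth the shares in cluster 9 were 51.2% for CST1, 47.0% for MET, 39.9% for COL6A5, 37.2% for CST4, 35.8% for SDC2, 32.1% for NMRK2 and 19.2% for PRR9. At least 1 of the 7 markers was seen in 64.7% of thinned cluster 9 cells (exact binomial 95% interval 62.3 to 67.1) and in 18.8% of the others. At least 2 were seen in 31.1, 3.78 and 7.71% of cluster 9, other non-primed and primed cells, respectively, and as means over libraries in 24.8 ± 11.9, 3.8 ± 2.91 and 3.32 ± 3.85%. No marker was seen in 35.3% of thinned cluster 9 cells, a share that fell to 8.02% at full depth.

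Within the cluster the markers did not form 1 block. Across its cells at full depth, CST1 and CST4 had Spearman's rho = 0.62 (mean 0.50 within libraries), against 0.36 in the other non-primed cells, and after thinning CST4 was seen in 35.3% of cells with CST1 and in 8.07% of cells without it. CST1 and MET had rho = 0.21. PRR9 had rho between -0.08 and 0.07 with the other 6 markers, and NMRK2 between -0.10 and 0.07. MET had rho = -0.31 with PRDX1 within cluster 9 (mean -0.22 within libraries) and 0.05 outside it. These are descriptions over 1571 cells that share libraries and depth. PRR9 and NMRK2 thus had the weakest relations to the other markers.

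Among the 13 clusters, cluster 9 had the highest level of 6 of the 7 markers, taking mean CPM over libraries with at least 20 cells of a cluster, although these libraries differ between clusters. Within single libraries it was highest for MET in 7 of 7, for PRR9 and NMRK2 in 6, for CST1, CST4 and SDC2 in 5 and for COL6A5 in 4. PRR9 was at 27.5 CPM, followed by cluster 8 at 8.25. MET was at 46.5 CPM, followed by cluster 12 at 31.5 ± 4.34 (114 cells, 2 libraries) and cluster 2 at 12.5. NMRK2 was at 22.3 against 9.20 CPM in cluster 11, COL6A5 at 37.0 against 26.2 in cluster 12, and SDC2 at 24.7 against 18.7 in the primed cluster 4. The cystatins were shared with that primed cluster: CST1 stood at 74.8 CPM in cluster 9 and 71.2 in cluster 4, and CST4 at 33.3 and 40.6 CPM, with 3254 of the 3270 cells of cluster 4 from the TGFB1 libraries. In those libraries cluster 9 was below cluster 4, with CST1 at 31.0 against 76.9 CPM in r1 and 29.5 against 65.5 in r2, and CST4 at 5.48 against 42.9 and 17.7 against 38.3 CPM. These 2 gaps, and those of MET, COL6A5 and SDC2 to their next cluster, were smaller than the SD of cluster 9 between libraries. CST1 fell to 19.4 CPM in the next cluster. Over genes at 20 CPM or more, the cluster most like cluster 9 was cluster 2, with a root mean square log2 difference of 0.305, followed by cluster 0 at 0.330, whereas the primed clusters 4 and 10 were at 1.0 and 0.887.

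The markers lie on different chromosomes, apart from the cystatins. On hg38, PRR9 is at chr1:153217584-153219310, MET at chr7:116672196-116798377, COL6A5 at chr3:130345516-130484846 and NMRK2 at chr19:3933069-3942416. CST1 at chr20:23747562-23751268 and CST4 at chr20:23685640-23689038 are separated by 58524 bases. Outside the markers, AKR1A1 at chr1:45550543-45570049 and PRDX1 are neighbours, 7811 bases apart. The neighbouring MMACHC had a log2 ratio of 0.59 (higher in 7 of 8 libraries), UROD of 0.00 and NASP of -0.34 (higher in 0 of 8). The median log2 ratio of whole chromosomes ran from -0.23 (chromosome 19) to 0.14 (chromosome 22), around -0.06 for all genes.

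Among genes at 20 CPM or more, 20 were at least 2 times higher in cluster 9 and 104 at least 2 times lower, on the same side in all 8 libraries (0.351% and 1.82% of 5703 genes). The higher group held AKR1A1, an aldehyde reductase, at 1485 ± 362 against 615 ± 181 CPM (log2 ratio 1.28 ± 0.40, n = 8). By library AKR1A1 was at 1360 (untreated), 1895 (TGFB1), 1529 (TGFBRi) and 2007 CPM (PI3Ki) in r1 and at 1028, 1515, 992 and 1555 CPM in r2, all above the highest value of the other cells, 901 CPM. The peroxiredoxin PRDX1 lay just outside the 2-fold limit, at 10338 ± 2924 against 5637 ± 1340 CPM (log2 ratio 0.86 ± 0.38). AKR1A1 and PRDX1 had rho = 0.79 across cluster 9 cells and 0.81 across the others.

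TRPM1, a cation channel of melanocytes, was at 118 ± 32.2 against 49.4 CPM (log2 ratio 1.20 ± 0.27), and the ubiquitin ligase TRIM63 at 132 ± 61.9 against 52.8 CPM (1.21 ± 0.45). The phospholipase PLAAT3 had a log2 ratio of 1.21, the beaded filament gene BFSP2 of 1.30, the stress-induced OSGIN1 of 1.10, the connexin GJB1 of 1.03 and the ephrin EFNA5 of 1.03. TM4SF19 had 1.07 and C21orf91 1.03. The remaining members were AC009495.2 (1.41), AL096706.1 (1.09) and LINC02762 (1.01). LINC02762 was thus the member closest to the limit.

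Of the 104 lower genes, 12 were histone genes and 13 were on the S phase and mitotic lists. HIST1H1A, a linker histone, had the lowest log2 ratio at -3.48, followed by the topoisomerase TOP2A at -3.02 (14.4 against 121.0 CPM), HIST1H3D at -2.63 and UBE2C, a ubiquitin carrier of mitosis, at -2.62. CCNA2, HIST1H1B, KIF14, HJURP, HIST1H2AH, CDCA2, NUF2 and ASPM completed the 12 lowest, down to -2.30 for ASPM. Of the 12 mitotic genes listed for this work, 12 were lower in all 8 libraries (median log2 ratio -1.91), as were 9 of 12 S phase genes (median -0.36), against 13% of 12909 genes. The authors' cell cycle calls placed 71.8 ± 7.18% of cluster 9 cells in G1, 24.9 ± 7.42% in S and 3.29 ± 1.74% in G2M (SD, n = 8), against 35.2 ± 5.52, 35.8 ± 3.29 and 28.9 ± 3.28% of the other cells. The G1 shares of 58.6 to 80.7% in cluster 9 and 28.6 to 42.6% in the others did not overlap. Phase calls are made from the same counts.

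When only cells called G1 were compared, the markers stayed and most of the lower group did not. In G1, 19 genes were at least 2 times higher, 17 of them among the 20 above, with PRXL2A (82.2 against 39.1 CPM) and ID3 (100.2 against 57.3 CPM) added. Just 11 genes were at least 2 times lower, 9 of them among the 104. The 12 lowest genes above had log2 ratios of -1.07 to -0.12 in G1, and the mitotic and S phase medians were -0.02 and -0.06.

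**Figure D3:**
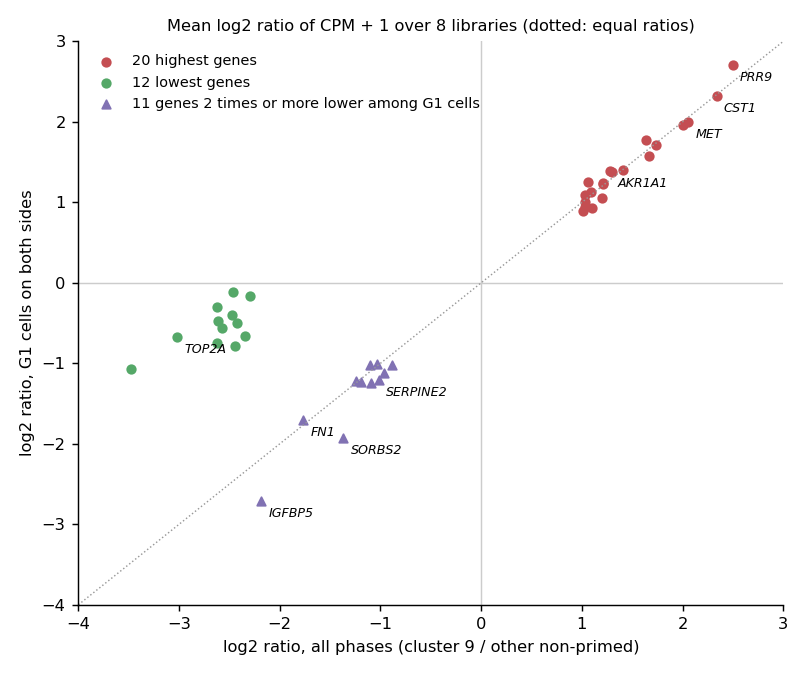
Mean log2 ratio of CPM + 1 in cluster 9 to other non-primed cells over 8 libraries, for all cells (horizontal axis) and for G1 cells on both sides (vertical axis), for the 20 highest genes, the 12 lowest genes and the 11 genes lower by 2 times or more in G1. The highest genes lie near the dotted line of equal ratios, the 12 lowest move up to between -1.07 and -0.12, and FN1 and IGFBP5 stay low.

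The 11 genes lower in G1 are named here after their values were seen. IGFBP5, a binding protein for insulin-like growth factors, was at 5.62 against 63.5 CPM among G1 cells (log2 ratio -2.71), SORBS2 at 8.16 against 43.2 (-1.93) and fibronectin, FN1, at 30.7 against 279 (-1.71). The mesenchymal factor PRRX1 was at 20.6 against 52.7 (-1.25), the small GTPase RND3 at 30.9 against 69.7 (-1.23), TBX2 at 10.6 against 26.7 (-1.22) and the protease inhibitor SERPINE2 at 125 against 381 CPM (-1.20). PDE4B (-1.12), the collagen receptor DDR2 (-1.03), the protease HTRA1 (-1.02) and SNAI2, a factor of epithelial-mesenchymal transition (-1.0), completed them. Over the 13 clusters, SNAI2 (20.4 CPM), PRRX1 (20.2 CPM) and RND3 (29.6 CPM) had their lowest level in cluster 9. FN1 at 30.7 CPM in cluster 9 was lower in cluster 6 (23.8) and cluster 11 (24.4). IGFBP5 at 6.96 and SERPINE2 at 125 CPM in cluster 9 were lower in cluster 11 (6.33 and 103). The other cells include cluster 3, with 3801 of its 4007 cells from the TGFB1 libraries. It had IGFBP5 at 142, FN1 at 1011 and SERPINE2 at 1175 CPM, and its part in these ratios was not tested.

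Of 13 melanocyte identity genes at 1 CPM or more, 6 were higher in all 8 libraries and 1 was lower, beside 6.41% and 13% of all 12909 genes. PMEL, the fibril protein of melanosomes, was at 4249 against 2599 CPM (log2 ratio 0.71), RAB27A, which moves melanosomes, at 190.2 against 127 (0.57), MLANA at 1555 against 1126 (0.48) and the pigment enzyme DCT at 417 against 311 (0.41), with SLC45A2 at 0.39. TYRP1 was lower (-0.56), while the factors MITF and SOX10 had log2 ratios of 0.03 and 0.06. The list's median log2 ratio was 0.16, beside -0.08 over all genes. Among G1 cells 7 were higher and 0 lower, beside 734 and 780 of all 12909 genes, with a median of 0.39 (-0.06 over all genes).

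Of 11 primed cell markers, 5 were lower in all 8 libraries, beside 13% of all genes (median log2 ratio of the list -0.76), namely FN1 at 29.8 against 207 CPM (-1.77), the AP-1 factor FOSL1 (-1.53), SERPINE2 (-1.02), the secreted peptide VGF at 597 against 1208 CPM (-0.94) and the receptor FGFR1 (-0.89). NT5E, the ectonucleotidase CD73, was higher, at 26.4 against 18.1 CPM (0.51). The FN1 and SERPINE2 means were carried by the TGFB1 libraries. Outside these, FN1 was at 5.92 to 22.9 CPM in cluster 9 and 20.2 to 54.7 in the others, and SERPINE2 at 88.4 to 127 and 140 to 216 CPM. EGFR (0.451 against 1.31 CPM), AXL (0.266 against 1.15 CPM) and NGFR (0.636 against 1.34 CPM) were near or below 1 CPM in both groups. The authors' primed score averaged 0.374 to 0.380 in cluster 9 and 0.377 to 0.389 in the others by library.

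The lists built around the markers hold the markers themselves. Higher in all 8 libraries were 3 of 4 cystatins, 1 of 2 MET system genes and 2 of 7 syndecans and glypicans. So were 1 of 6 collagens, 1 of 7 NAD synthesis genes and 2 of 7 genes of the epidermal differentiation complex. Every marker is among these by its choice as high in cluster 9, so the counts cannot be set against the 6.41% of all genes. Of the cystatins, CSTB, an intracellular inhibitor of cathepsins, was higher in 8 of 8 libraries at 1991 ± 300 against 1272 ± 151 CPM (log2 ratio 0.64), CST3 was at 550 against 526 CPM, and CST2, CST6 and CST7 were at or near 0. The MET ligand HGF was at 0.01 CPM and the adaptor GAB1 at 3.11 against 3.28 CPM. SDC3 was higher (84.2 against 65.0 CPM), SDC4 had a log2 ratio of 0.02 and GPC6 was lower (-0.52). The collagen VI chains COL6A1 (15.5 against 22.4 CPM) and COL6A2 (log2 ratio -0.91) stood on the other side from COL6A5. In NAD synthesis, NAMPT and NAPRT were lower (-0.34 each) and NMRK1 was at 5.30 against 4.13 CPM. In the epidermal differentiation complex around PRR9, S100A10 was higher (0.28) and S100A4 lower (-1.18).

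The markers of other cell types were summed in each library. Keratinocyte markers summed to 55.7 to 88.1 CPM in cluster 9 and 68.7 to 85.4 in the others, nearly all KRT10, with 4 of 6 at 0. Fibroblast markers summed to 22.9 to 55.7 and 21.7 to 39.7 CPM, leukocyte markers to 22.2 to 52.4 and 32.8 to 46.4, and endothelial markers to 0 to 0.456 and 0.279 to 0.816. Schwann cell markers, which pigment cells share in part, summed to 911 to 1172 CPM in cluster 9 and 722 to 919 in the others, led by S100B (739 against 582 CPM).

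Lineage barcode transcripts were read from slightly more cluster 9 cells than other cells. The share of cells with a barcode UMI was 98.0 to 100% in cluster 9 and 95.03 to 99.7% in the others, higher in cluster 9 in 7 of 8 libraries, by 1.18 ± 1.31 percentage points (SD, n = 8). An exact two-sided sign-flip permutation test gave p = 0.0156, where the smallest it can give is 0.00781. The 8 plates came from 2 wells and are not fully independent, so this p is too small if plates of a well vary together. Cluster 9 cells also held more UMIs in 8 of 8 libraries. Among cells in a shared range of total UMIs the difference kept its side and stayed under 0.05 in the same test. That range does not equalize depth, so the part of depth in the difference was not settled.

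Treatments were then compared within cluster 9 with edgeR's quasi-likelihood test on counts summed per library, with Benjamini-Hochberg adjusted p under 0.05 as the threshold and the well as a block. The fit held 7 libraries and 10702 genes. The TGFBRi comparison thus rests on the r2 library of 114 cells, which is assumed to vary like the libraries of the other groups. The fit of the other non-primed cells also held TGFBRi r2 alone. TGFB1 changed 318 genes up and 348 down (6.22% of genes tested), TGFBRi 34 up and 44 down (0.729%) and PI3Ki 262 up and 267 down (4.94%). In the same fit of the other non-primed cells, where sums were deeper, 20.8, 7.07 and 18% of 18360 genes were called and 9.14% between the wells. Without the block the counts were 211, 9 and 76 genes, DESeq2 called 98, 18 and 108, and without the untreated r2 library they were 202, 35 and 99.

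With TGFB1, 2 of the 7 markers rose and 3 fell in cluster 9, MET among the latter, where 2.97% of all genes rose and 3.25% fell. MET went from 38.0 to 14.6 CPM in r1 and from 64.4 to 20.8 CPM in r2, a log2 change of -1.60 ± 0.14 (SE, edgeR adjusted p = 2.6e-18), against -0.70 in the other non-primed cells. The MET call held in every alternative run. PRR9 rose by 1.34 ± 0.16 in the fit (2.05 in the other cells), from 40.9 to 50.2 CPM in r1 and from 13.0 to 51.3 CPM in r2. The PRR9 call rests on r2: it was 0.31 (adjusted p = 0.67) without the untreated r2 library and 0.71 (adjusted p = 0.079) without the TGFB1 r2 library. DESeq2 did not call it either (1.07, adjusted p = 1.0).

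With TGFB1 the fitted changes of CST1 and CST4 had opposite signs in cluster 9 and outside it, and in the cluster that of CST1 alone passed the threshold. CST1 fell from 38.0 to 31.0 CPM in r1 and from 49.8 to 29.5 in r2 (-0.67 ± 0.14, edgeR adjusted p = 1.7e-04), while the fit in the other cells gave 0.93. The CST1 change was -0.17 (adjusted p = 0.85) without the untreated r2 library, -0.61 with DESeq2 (adjusted p = 0.31) and -0.62 with 66 cells per library (adjusted p = 0.15). CST4 changed by -0.56 (adjusted p = 0.063) in cluster 9 and by 0.83 outside, and its call was gained without the TGFB1 r2 library (-1.70, adjusted p = 0.0017) or the untreated r1 library (-0.66, adjusted p = 0.021). SDC2 fell by 0.84 ± 0.16 on the log2 scale (adjusted p = 5.5e-05, 0.33 outside), and without the untreated r2 library its change was -0.94 (adjusted p = 0.094), as it was with DESeq2 (adjusted p = 0.22). NMRK2 rose by 0.53 (adjusted p = 0.034, -0.08 outside), a call lost without any 1 of the 4 libraries compared (0.51 to 0.63), without the block (adjusted p = 0.14), with no filter (adjusted p = 0.067), with DESeq2 (adjusted p = 1.0) or with 66 cells per library (0.47, adjusted p = 0.53). COL6A5 changed by -0.15 (adjusted p = 0.62, 0.63 outside). AKR1A1 rose by 0.50 ± 0.07 and PRDX1 by 0.59 ± 0.08, against -0.01 and 0.03 outside, the PRDX1 call not without the block (0.57, adjusted p = 0.056).

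The response of cluster 9 to TGFB1 included its usual targets. Of 7 TGF-beta target genes tested, 5 rose and none fell, beside those 2.97% and 3.25% of all genes, among them PMEPA1, an inhibitor of the pathway, by 4.05 ± 0.30 (edgeR adjusted p = 6.8e-24), SKIL, a SMAD repressor, by 2.58 and SMAD7, an inhibitory SMAD, by 1.10. FN1 rose from 19.4 to 69.4 CPM in r1 and from 14.6 to 78.3 in r2 (2.25 ± 0.15). COL6A3 rose by 2.32, the amino acid transporter SLC7A5 by 1.36, the adhesion molecule CADM1 by 1.34, CXXC5 by 1.33, FAM210B by 1.30, NAV2 by 1.30 and SH3BP1 by 1.25. TXNIP (1.24), S100A2 (1.10), IER3 (0.86), S100A6 (0.79), COL9A3 (0.75) and SERPINE2 (0.45) rose too.

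LINC02762 (-1.45), LINC00520 (-1.35), the exonuclease ISG20 (-1.10), BTN2A2 (-1.05), RND3 (-1.04), ZCCHC24 (-1.03) and ID2, an inhibitor of DNA binding (-1.0), fell with TGFB1. NT5E (-0.64), TFAP2A (-0.59), DCT (-0.44), CSTB (-0.43) and MLANA (-0.29) fell as well. Some of these calls did not hold in every alternative. RND3 was at -0.80 (edgeR adjusted p = 0.21) without the untreated r2 library and -0.20 (adjusted p = 0.87) without the TGFB1 r2 library, and LINC00520 was at -0.70 (adjusted p = 0.27) without the latter. DESeq2 did not call RND3 (-0.84, adjusted p = 0.41), ZCCHC24 (-1.18, adjusted p = 0.11) or BTN2A2 (-1.15, adjusted p = 0.052). With 66 cells per library RND3 (-0.82, adjusted p = 0.054), LINC02762 (-0.73, adjusted p = 0.24) and ZCCHC24 (-0.71, adjusted p = 0.32) were not called.

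With TGFBRi, 2 of the 7 markers fell in cluster 9 and none rose, where 0.411% of all genes fell and 0.318% rose. NMRK2 went from 18.8 to 5.98 CPM in r2 (-1.59 ± 0.40, edgeR adjusted p = 0.028, -0.63 outside) and COL6A5 from 57.9 to 28.7 CPM (-0.95 ± 0.22, adjusted p = 0.012, -0.64 outside). Both calls were lost without the untreated r2 library (-1.49, adjusted p = 0.34, and -0.66, adjusted p = 0.69) and without the block (-1.61, adjusted p = 0.16, and -0.70, adjusted p = 0.81). PRR9 changed by -1.44 (adjusted p = 0.089, -0.30 outside) and MET by 0.52 (adjusted p = 0.10, 0.12 outside). The PRR9 change became a call without the untreated r2 library, at -2.59 (adjusted p = 3.9e-06), and at -1.43 without the PI3Ki r1 (adjusted p = 0.046) or the PI3Ki r2 library (adjusted p = 0.042).

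With TGFBRi 2 of 4 ID genes fell, and of 7 TGF-beta target genes tested 1 fell, ID1, which is on both lists, where 0.411% of all genes fell. ID3 went from 105.7 to 19.1 CPM (-2.29 ± 0.24), ID1 from 23.7 to 2.99 CPM (-2.91 ± 0.47) and COL9A3, a collagen IX chain, from 74.1 to 14.9 CPM (-2.23 ± 0.25). These calls held in every alternative run, as did that of the fatty acid transporter SLC27A3 (-1.09), except that DESeq2 gave no adjusted p for ID1. CXXC5 (-2.25), NAV2 (-1.54) and PLAAT3 (-1.09) also fell, the first and last of them not without the untreated r2 library (-1.44, edgeR adjusted p = 0.51, and -0.81, adjusted p = 0.41). HSPA1A (1.16), SPRY4 (1.08), SEZ6L2 (0.80), MCM3AP (0.76), HMGCS1 (0.74), BCAN (0.72), CAPNS1 (0.69) and TRIM63 (0.68) rose. Without the untreated r2 library HSPA1A (0.74, adjusted p = 0.56), SPRY4 (1.27, adjusted p = 0.20), MCM3AP (0.90, adjusted p = 0.29), HMGCS1 (0.53, adjusted p = 0.65), BCAN (0.61, adjusted p = 0.52) and CAPNS1 (0.80, adjusted p = 0.0505) were no longer called. Without the untreated r1 library SEZ6L2 (0.68, adjusted p = 0.099) and SPRY4 (1.01, adjusted p = 0.082) were not called either, nor SPRY4 without the PI3Ki r1 (1.03) or PI3Ki r2 library (1.03), nor BCAN without the PI3Ki r1 library (0.70). Without the block CXXC5, NAV2, PLAAT3 and the genes that rose were not called, apart from TRIM63 (adjusted p of 0.084 to 0.74), and TRIM63 was not called with 66 cells per library (0.46, adjusted p = 0.17).

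With PI3Ki, 3 of the 7 markers rose in cluster 9 and none fell, where 2.45% of all genes rose and 2.49% fell, and of the 3 the cystatins rose most. CST1 went from 38.0 to 190.4 CPM in r1 and from 49.8 to 147.7 in r2 (1.84 ± 0.10, edgeR adjusted p = 1.6e-34, 2.50 outside), and CST4 from 11.5 to 70.5 and from 24.3 to 79.0 CPM (1.95 ± 0.14, adjusted p = 6.2e-25, 2.62 outside). Both calls held in every alternative run, except that DESeq2 gave no adjusted p for CST4. NMRK2 rose by 0.71 ± 0.16 (adjusted p = 8.6e-04, 0.85 outside), but not without the untreated r2 library (0.81, adjusted p = 0.27) or the PI3Ki r2 library (0.78, adjusted p = 0.20). MET changed by 0.00 (adjusted p = 1.0, 0.35 outside), SDC2 by -0.06, COL6A5 by -0.16 (adjusted p = 0.57) and PRR9 by -0.32 (adjusted p = 0.44, 1.56 outside). Without the untreated r2 library PRR9 was at -1.40 (adjusted p = 6.7e-05). AKR1A1 rose by 0.65 ± 0.07 and PRDX1 by 0.37, the latter not without the untreated r2 library (0.23, adjusted p = 0.52), without the block (0.34, adjusted p = 0.47) or with DESeq2 (adjusted p = 0.055).

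**Figure D4:**
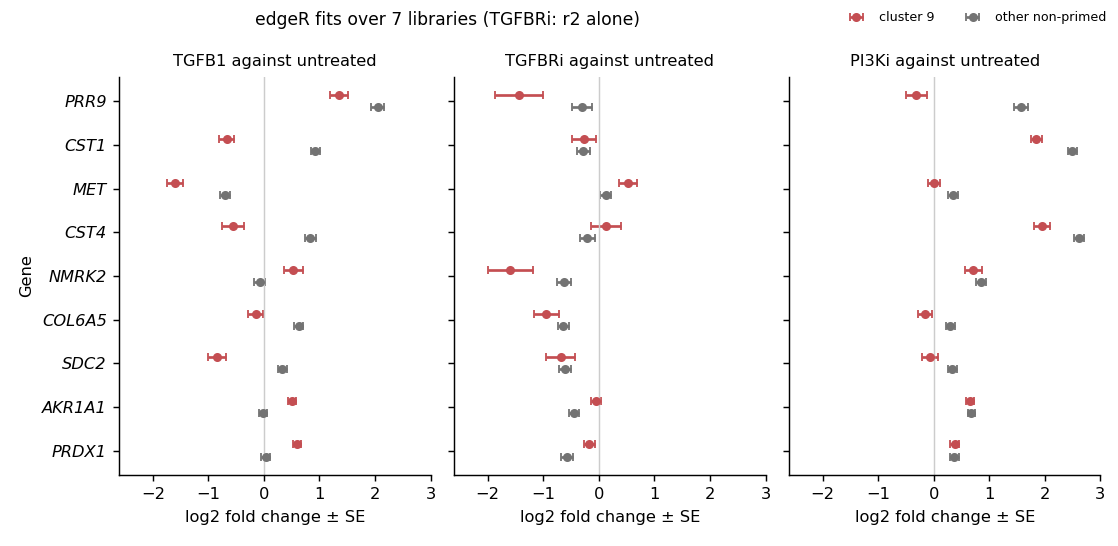
Log2 fold change against untreated cells ± SE from the edgeR fits (horizontal axis) for the 7 markers, AKR1A1 and PRDX1 (vertical axis), in cluster 9 and in the other non-primed cells, 1 panel for each treatment. MET is lowest with TGFB1 at -1.60 in cluster 9, and CST1 and CST4 are at 1.84 and 1.95 with PI3Ki.

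With PI3Ki 3 of the 4 ID genes rose, where 2.45% of all genes did. ID1 went from 14.4 to 46.8 CPM in r1 and from 23.7 to 72.6 in r2 (1.71 ± 0.14), ID3 rose by 1.41 and ID2 by 0.94. COL9A3 (1.36), NPAS1 (1.13), the integrin ITGA10 (1.05), SPRY4 (1.01) and TXNIP (0.97) rose too, ITGA10 not without the block (1.07, adjusted p = 0.086). BNIP3, a mitophagy receptor, fell from 238 to 78.5 CPM in r1 and from 252 to 75.8 in r2 (-1.63 ± 0.09). DDIT4 (-1.40), PLOD2 (-1.16), the glycogen enzyme GBE1 (-1.11), SERGEF (-1.03), the kinase PDK1 (-1.02) and lactate dehydrogenase LDHA (-1.0) fell with it, and LINC02249 fell by 1.0.

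Some of these calls were lost when 1 library was left out, with the change on the same side. Without the PI3Ki r2 library SERGEF was at -0.82 (edgeR adjusted p = 0.30), PDK1 at -0.91 (adjusted p = 0.077), NPAS1 at 0.40 (adjusted p = 0.71), PLOD2 at -1.11 (adjusted p = 0.075) and LINC02249 at -0.53 (adjusted p = 0.47). Without the untreated r2 library NPAS1 (0.95, adjusted p = 0.086), PLOD2 (-0.73, adjusted p = 0.43) and LINC02249 (-0.31, adjusted p = 0.77) were not called. FN1 fell by 0.91. Of 12 melanocyte identity genes tested, 2 rose, PMEL (0.52) and MITF (0.29), and 3 fell, DCT (-0.84), TRPM1 (-0.48) and SLC45A2 (-0.32), beside 2.45% and 2.49% of all genes.

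Between the wells, 155 genes were higher in r2 and 189 higher in r1 within cluster 9 (3.21% of genes tested), and 3 of the 7 markers were higher in r2, where 1.45% of all genes were. With 1 well on each side, these p-values take the plates of a well as replicates and do not measure the spread between wells. COL6A5 was at 57.9 against 24.4 CPM in untreated cells, 48.2 against 32.4 with TGFB1 and 48.9 against 18.8 with PI3Ki (0.96 ± 0.13, edgeR adjusted p = 1.8e-08, 1.46 outside). MET was higher by 0.63 ± 0.13 (adjusted p = 2.4e-04, 0.92 outside) and CST4 by 0.46 (adjusted p = 0.035, 0.72 outside). The CST4 call was lost without the untreated r1 (0.36), TGFB1 r1 (0.29), untreated r2 (0.37) or TGFB1 r2 library (0.29), with adjusted p of 0.20 to 0.40. PRR9 was at -0.43 (adjusted p = 0.084), which became a call at -0.95 without either TGFB1 library. AKR1A1 (-0.41 ± 0.06) and PRDX1 (-0.54 ± 0.06) were lower in r2. In the other non-primed cells all 7 markers had a higher level in r2 in 4 of 4 treatments, a share not counted over all genes. The fit of these cells called all 7 higher in r2, where 885 of 18360 genes were.

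VGF was higher in r2 by 0.92 ± 0.06, at 732 against 372 CPM in untreated cells, and NT5E by 0.83. LINC00520 (0.96), SERGEF (0.92), AHNAK (0.71), MARS (0.66) and ITPRIPL2 (0.64) were also higher. QPRT, an enzyme of NAD synthesis, changed by -1.52 ± 0.16 from r1 to r2, at 12.6 against 38.8 CPM in untreated cells. CHL1 (-1.15), ITGA10 (-0.96), CYP7B1 (-0.75), EGFL7 (-0.74), APOE (-0.70), ANKS1A (-0.69) and SPRY4 (-0.64) were lower as well. MARS (0.52, edgeR adjusted p = 0.14) and ITPRIPL2 (0.36, adjusted p = 0.40) were not called without the untreated r1 library, with close values without the untreated r2 library (0.52 and 0.37). ANKS1A (-0.40, adjusted p = 0.37) and SPRY4 (-0.51, adjusted p = 0.38) were not called without the PI3Ki r1 library, nor without the PI3Ki r2 library (-0.40 and -0.50), and MARS was lost without either PI3Ki library (0.60). The number of genes called between wells fell to 155 without the untreated r1 library and was 52 with DESeq2.

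The treatment effect itself was compared between cluster 9 and the other non-primed cells as an interaction in a fit of 18700 genes. It differed for 264 genes with TGFB1 (1.41%), 17 with TGFBRi (0.0909%) and 48 with PI3Ki (0.257%), and r2 against r1 differed for 56 (0.299%). Among the 7 markers 6 were lower in this comparison with TGFB1 (median -0.99), beside 113 of all genes. With PI3Ki 2 were lower, PRR9 and CST1, beside 27 of all genes. Between the wells 2 were lower (median -0.48), among them CST1 at -0.62, beside 29 of all genes. The marker median with TGFBRi was -0.12. The markers were picked as high in cluster 9 on the same counts, so calls on them are not independent of that choice. FN1 rose less in cluster 9, from 19.4 to 69.4 and from 14.6 to 78.3 CPM, against 44.2 to 740 and 54.7 to 697 CPM outside (difference -1.45 ± 0.18, edgeR adjusted p = 6.15e-13). SERPINE2 likewise went from 98.3 to 175 and 126 to 154 CPM in cluster 9 and from 175 to 789 and 216 to 658 CPM outside (-1.28 ± 0.09). VGF stayed at 372 to 350 and 732 to 847 CPM in cluster 9 while outside it went from 792 to 389 and from 1384 to 1007 CPM (0.80 ± 0.06). GDF15, a stress cytokine, went from 96.2 to 277 and from 93.0 to 171 CPM in cluster 9, against 132 to 187 and 125 to 168 outside (0.70 ± 0.09). These 4 calls held in every alternative run.

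These comparisons carry the limit named above, since which cells are counted in cluster 9 can move with treatment. The other non-primed cells of the TGFB1 libraries, 3726 in r1 and 3480 in r2, included 3801 of the 4007 cells of cluster 3. Over libraries cluster 3 had FN1 at 1011 and SERPINE2 at 1175 CPM. In clusters 2 and 0, the most like cluster 9, FN1 was at 47.6 ± 44.3 and 49.0 ± 37.0 CPM (SD, n = 8 libraries). Their SERPINE2 was at 192 ± 38.8 and 210 ± 71.9 CPM, so levels far below cluster 3 were not particular to cluster 9. The part of cluster 3 in the differences was not tested. The 264 genes fell to 57 without the untreated r2 library, to 117 without the TGFB1 r2 library and to 165 without the untreated r1 library, and the 48 genes with PI3Ki to 7 without the untreated r2 and to 6 without the PI3Ki r2 library. DESeq2 called 66, 7 and 3 genes.

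The markers were also read in the first WM989 experiment, 12531 cells of 8 wells in 11 clusters, whose cells the clustering above did not use. Per the study's methods, it held mixed cells and cells sorted for high EGFR and NGFR, each loaded over 2 wells of a chip, so that the wells are repeat lanes of fewer samples, and the labels used here do not tell which wells were sorted. Summed over wells, they were high in its non-primed cluster 10, of 466 cells, 82.8% in G1 and 79.0% from that experiment's own r1. Per cluster, PRR9 was highest there at 5.52 CPM (next 1.94), CST1 at 38.0 (next 22.4), MET at 24.7 (next 11.2), CST4 at 3.40 (next 2.88), NMRK2 at 14.6 (next 8.94) and SDC2 at 10.3 (next 7.81). COL6A5 was at 17.3 CPM there and in cluster 9 of that experiment, a primed cluster, so these could not be ordered. The values are sums over wells with no replicate error, and r1 cells made up 79.0% of cluster 10 but 53.3% of cluster 5, the next for CST1. Within the r1 wells CST1 was at 47.7 CPM in cluster 10 and 40.0 in cluster 5, and 6 of the 7 markers had their highest level in cluster 10, CST4 being at 3.47 CPM there and 3.93 in cluster 5. Within the r2 wells, where cluster 10 held 98 cells, PRR9, CST1 (4.11 against 2.38 CPM), CST4 and NMRK2 were highest there. MET (10.8 CPM) and COL6A5 (16.3 CPM) were below cluster 9 of that experiment (13.6 and 18.0 CPM), and SDC2 was below clusters 4 and 2.

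TRIM63 (136 CPM), TRPM1 (80.4), PLAAT3 (50.9), OSGIN1 (40.3) and BFSP2 (32.6) had their highest level in the same cluster. AKR1A1 and PRDX1 did not. AKR1A1 at 532 CPM was below cluster 5 at 628 and cluster 6 at 552 CPM. PRDX1 at 3850 CPM was below clusters 0, 1, 5, 6 and 7, the highest being cluster 5 at 5789 CPM. Within the r2 wells AKR1A1 was at 155 CPM in cluster 10, the lowest of the non-primed clusters. Cluster 10 was picked for its marker levels, so the markers are left out of the next counts. Of the 11 other highest genes of cluster 9 that were measured, 6 had their highest level there, where 14% of 13761 genes did. Within the r1 wells it was 7 (14.1% of all genes) and within the r2 wells 3 (21.4%). Over all wells 10 were above the other non-primed cells (median log2 ratio 0.62). The 11 genes lower in G1 were read in cluster 10 over cells of all phases without treatment. The comparison that named them took G1 cells of libraries with and without treatment. Of the 11, 6 were above and 5 below the other non-primed cells (median 0.03), so they were not lower as a set. IGFBP5 was at -1.10, FN1 at 0.03, RND3 at 0.75 and SERPINE2 at 0.77. Across the cells of the first experiment all 21 pairs of markers had positive rho, from 0.0469 to 0.272 (median 0.105), the highest for CST1 and CST4. This is a description over cells that share wells and depth. FN1 was at 1732 to 3976 CPM in wells 1, 2, 5 and 6 and at 187 to 359 in the rest. In r1, CST1 was at 9.89 and 7.92 CPM in wells 1 and 2 and at 22.4 and 20.5 in wells 3 and 4. MET stood at 2.95 and 3.94 CPM in wells 1 and 2 and at 7.99 and 8.88 in wells 3 and 4. In r2, CST1 was at 1.0 to 2.04 CPM. MET was at 9.64 and 9.28 CPM in wells 5 and 6 and at 5.13 and 5.0 in wells 7 and 8.

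**Figure D5:**
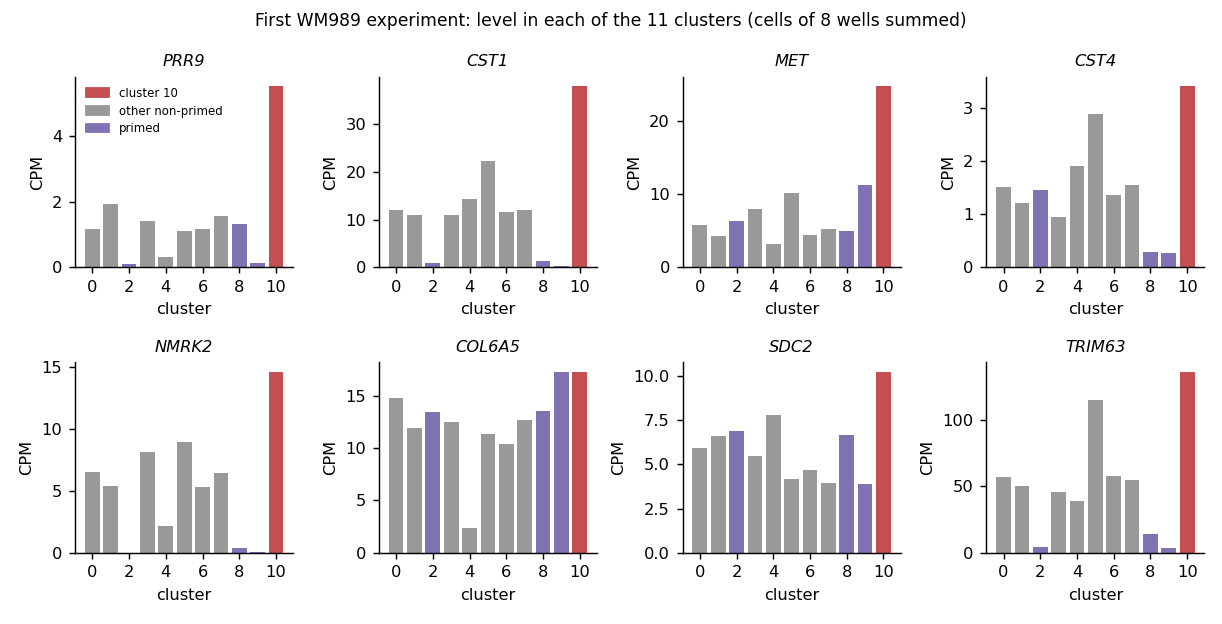
Level in CPM (vertical axis) of the 7 markers and TRIM63 in each of the 11 clusters of the first WM989 experiment (horizontal axis), over the summed cells of 8 wells, without replicate error. Cluster 10 is the highest for PRR9 at 5.52 CPM and for CST1 at 38.0 CPM, while COL6A5 is at 17.3 CPM in clusters 9 and 10.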

How the data were processed

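Per the labels and the study's methods, the authors aligned 3′ droplet libraries with Cell Ranger to hg38, filtered cells in Seurat V3 on detected genes and mitochondrial percent, and clustered them. The Cell Ranger version was not given in the sources used here. What the authors deposited were counts of UMIs for 36601 genes in 40021 cells, and a cell table with cluster, phase, percent of mitochondrial UMIs and a primed score. No doublet caller was run here. Members and gene lists were chosen with earlier results of these data known, and 25 lists were used. Genes were named as members of these lists, as the 20 highest and 12 lowest against other non-primed cells, and as the 8 largest rises and falls of each fit at 20 CPM or more. Some genes that met these rules are not reported here. Counts were summed per library, libraries under 20 cluster 9 cells were left out, and genes were filtered with filterByExpr and TMM-normalized. They were fitted with edgeR 4.0.16 (R 4.3.3, quasi-likelihood, Benjamini-Hochberg, threshold 0.05), treatment and well as terms and 2 residual degrees of freedom. DESeq2 1.42.0 was an alternative. Thinning to 5000 UMIs left out 33 cells, none of cluster 9. The well served as a block since its differences were shared between treatments (r = 0.297 to 0.335 across 5351 genes, same-numbered plates being from the same well). On simulated counts the within-cluster fit (10693 genes) recovered 100% of 4-fold and 60 to 64% of 2-fold changes, and the fit of differences (18643 genes) 94 to 100% and 30 to 32%. The simulation had a fixed spread not estimated from these data and no well effect, and it changed only genes above a minimum expected count. It therefore does not give the sensitivity of the fits of the real counts. Python 3.11.15, numpy 2.4.6, scipy 1.17.1 and pandas 2.3.3 were used. Alternatives included leaving out each library, no block, no filter, equal cells and G1 cells; 3 of them, adding the 19-cell library, taking G1 cells between wells and ordering clusters within each library, were chosen after seeing the data.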

Additional observations from a re-analysis of the deposited data

Results flagged for a closer look

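The results below stood out because the treatment effect in cluster 9 differed from that in the other non-primed cells by an interaction term, in edgeR's quasi-likelihood test with Benjamini-Hochberg adjustment. Values are log2 differences of the effect, cluster 9 minus others. The cells counted in cluster 9 can move with treatment, and the part of this in the differences was not tested. The markers were picked as high in cluster 9 on the same counts, so calls on them are not independent of that choice.

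With TGFB1, 264 of 18700 genes differed (1.41%), 113 of them lower, and 6 of the 7 markers were on the lower side. They were CST1 at -1.47, CST4 at -1.39, SDC2 at -1.17, MET at -0.99, COL6A5 at -0.87 and PRR9 at -0.81. In the fit of the other non-primed cells, 5 of the 7 markers rose with TGFB1 and 1 fell. The part of the choice of markers in these 6 differences was not tested. NMRK2 was at 0.62 (adjusted p = 0.11), and among G1 cells at 1.25, past the threshold on the higher side (adjusted p = 0.0013). DESeq2 gave no adjusted p for these 6. The CST1 call held in every other alternative run, and each of the other 5 was lost in at least 1. CST4 was at -0.87 and MET at -0.72 without the untreated r2 library, and among G1 cells SDC2 was at -0.79, MET at -0.45, COL6A5 at -0.47 and PRR9 at -0.35. Without the TGFB1 r2 library MET was at -0.27 and PRR9 at -0.93, COL6A5 was at -0.17 without the untreated r2 and at 0.099 without the TGFB1 r2 library, and without the untreated r1 or TGFB1 r1 library PRR9 was at -0.42 or -0.75. With as many other cells as cluster 9 cells MET was at -0.31 and PRR9 at -0.96.

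Among other genes, the lower side with TGFB1 held FN1 at -1.45, SERPINE2 at -1.28 and RND3 at -1.17. It also held the myelin lipid carrier PMP2 at -1.15, LINC00520 at -1.18 and LINC02762 at -1.05. The outside levels of FN1 and SERPINE2 included the cells of cluster 3 described above, whose part was not tested. Genes on the other side were VGF (0.80), GDF15 (0.70), the potassium channel subunit KCNAB2 (0.66), SLC27A3 (0.66), the early response factor EGR1 (0.65) and the division genes NCAPG (0.93), POLD3 (0.74) and CDC6 (0.67). PMP2 stood at 47.4 and 53.7 CPM in untreated and 51.1 and 43.2 CPM in TGFB1 cells of cluster 9, against 17.3 and 25.4 and then 41.8 and 46.6 CPM outside, so it differed by the rise outside. Without the untreated r2 library RND3 (-0.99), LINC00520 (-0.61), LINC02762 (-0.66), NCAPG (1.66), POLD3 (0.45), CDC6 (0.82), SLC27A3 (0.50) and EGR1 (0.58) were no longer past the threshold. The same held without the TGFB1 r2 library for RND3 (-0.54), LINC00520 (-0.94), POLD3 (0.75), CDC6 (0.59) and EGR1 (0.70), and without the untreated r1 or the TGFB1 r1 library for NCAPG (0.75 in both) and EGR1 (0.67 and 0.63). Among G1 cells NCAPG (0.85), POLD3 (0.52) and EGR1 (0.52) were not called, nor were NCAPG (0.78), EGR1 (0.76) and LINC02762 (-1.06) with as many other cells as cluster 9 cells. 57 genes differed without the untreated r2 library, 117 without the TGFB1 r2 library and 165 without the untreated r1 library.

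With TGFBRi, where r2 alone supplied the cluster 9 cells and was assumed to vary like the other groups, 17 genes differed. The higher side held TRIM63 (0.60), EMP1 (0.50), the polyamine enzyme SAT1 (0.46), AKR1A1 (0.38), PRDX1 (0.37) and PMEL (0.23). The lower side held SLC27A3 (-0.90), DDIT4 (-0.89), BNIP3 (-0.63), S100A6 (-0.59), the apoptosis inhibitor BIRC7 (-0.58), VGF (-0.54), cyclin D1, CCND1 (-0.48), and PHLDA2 (-0.41). AKR1A1 stood at 1028 and 992 CPM in untreated and TGFBRi cells of cluster 9 in r2, against 576 and 427 CPM outside. Without the untreated r2 library 9 genes differed, and TRIM63 (0.67), SAT1 (0.34), PRDX1 (0.26), PMEL (0.22), BNIP3 (-0.69), BIRC7 (-0.33), VGF (-0.46), CCND1 (-0.37) and PHLDA2 (-0.40) were not among those past the threshold. EMP1 was lost without the untreated r1 (0.39), PI3Ki r1 (0.46), TGFB1 r2 (0.41) or PI3Ki r2 library (0.46), PHLDA2 without the untreated r1 library (-0.42), and PMEL without any 1 of the 6 libraries that could be left out (0.19 to 0.24). AKR1A1 was not called without the block (0.20), among G1 cells (0.21) or with as many other cells (0.11). The latter setting also lost TRIM63 (0.10), PRDX1 (0.23), EMP1 (0.29), SAT1 (0.47), PMEL (0.04), BNIP3 (-0.49), BIRC7 (-0.61), CCND1 (-0.29) and PHLDA2 (-0.07). DESeq2 did not call TRIM63, EMP1, SAT1, PMEL, BNIP3, BIRC7 or PHLDA2, and without the block PRDX1, SAT1, PMEL, BIRC7, CCND1 and PHLDA2 were lost. SLC27A3, DDIT4 and S100A6 held in every alternative run.

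With PI3Ki, 48 genes differed, among them the markers PRR9 at -1.93, a call that held in every alternative run, and CST1 at -0.58. CST1 was not called without the untreated r2 (-0.29) or PI3Ki r2 library (-0.20), with DESeq2 (-0.53), without the block (-0.53), among G1 cells (-0.40) or with as many other cells (-0.48). Division genes were on the higher side, with BUB1B at 1.08, TOP2A at 0.91, NCAPG at 0.81 and HMGB2 at 0.70, but among G1 cells BUB1B was at 0.22, TOP2A at 0.02 and NCAPG at 0.10, below the threshold. COL9A3 (0.48), DUSP6 (0.46) and IER3 (0.46) were also higher, the first 2 not among G1 cells (0.36 and 0.45). LINC00520 (-1.03), C11orf96 (-0.81), SERGEF (-0.58), SNHG18 (-0.54), TRIM63 (-0.52), LINC01918 (-0.52) and TM4SF19 (-0.47) were lower. All of these genes other than the markers fell short of the threshold without the untreated r2 library, at values of -0.81 (SERGEF) to 1.64 (BUB1B), and all did so without the PI3Ki r2 library, at -0.87 (C11orf96) to 0.95 (BUB1B). With DESeq2 none of these calls held apart from PRR9 (adjusted p of 0.42 to 1.0). The number of genes was 7 and 6 without these libraries, and 86 without the TGFB1 r1 or the TGFB1 r2 library.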

How the results depend on the processing

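Depth limits cluster 9 more than its comparison, with 19 to 557 cells per library. Counts that moved and signs that turned are given here, with calls that moved mostly beside their genes above, and the cause was not tested unless the alternative itself shows it.

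The share gained with TGFB1 was 2.49 percentage points among non-primed cells, against 0.676 among all cells. Of the 6 markers highest in cluster 9 by mean, 1, MET, was so in each library, an order chosen after seeing the data. The share gap between wells ran from 3.46 to 5.31 percentage points when each treatment was left out, and the barcode share difference from 0.793 to 1.36 when each library was. Without thinning, detection was 19.2% for PRR9, 51.2% for CST1, 47.0% for MET, 37.2% for CST4, 32.1% for NMRK2, 39.9% for COL6A5 and 35.8% for SDC2, deeper cells showing more genes by construction. Genes at least 2 times lower fell from 104 to 11 among G1 cells, while the other settings gave 14 to 29 higher genes.

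Within cluster 9, for TGFB1, TGFBRi and PI3Ki in turn, DESeq2 called 98, 18 and 108 genes and 66 cells per library 290, 40 and 220, the latter resting on fewer cells. The fit with no replicate block called 211, 9 and 76. With the 19-cell library the counts were 532, 55 and 407. Leaving out 1 library gave 202 to 689, 35 to 112 and 99 to 527 genes. The low ends came without the untreated r2 library, and other counts over 1.5 times away were 395 without TGFB1 r1 and 244 without TGFB1 r2 for TGFB1, and 143 without PI3Ki r2 for PI3Ki. No TGFBRi value exists without the TGFBRi r2 library.

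Between wells DESeq2 called 52 genes, G1 cells alone 208, and leaving out 1 library 155 to 330, with 155 and 159 without the untreated r1 and r2, 174 and 192 without the TGFB1 r1 and r2, and 193 and 204 without the PI3Ki r1 and r2 library. With the 19-cell library 239 genes were called. With 66 cells per library CST1 became a call (-0.47, adjusted p = 0.024) and SERGEF was lost (0.61, adjusted p = 0.082), and among G1 cells MARS (0.44) and CST4 (0.48) were lost.

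For the difference between cluster 9 and other cells, DESeq2 called 66, 7 and 3 genes. The fit with no replicate block called 181, 9 and 21, as many other cells as cluster 9 cells gave 97 (TGFB1) and 7 (TGFBRi), and G1 cells alone gave 83 for PI3Ki. Leaving out 1 library gave 57 to 243, 9 to 23 and 6 to 86.

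Signs turned for markers that, within cluster 9, did not pass the threshold. With TGFB1, COL6A5 ran from -0.29 to 0.46 over left-out libraries. With TGFBRi, CST1 ran from -0.40 to 0.27 and CST4 from -0.0050 to 0.70, CST4 was at -0.36 with equal cells and -0.023 in G1, and AKR1A1 at 0.064 with the 19-cell library. With PI3Ki, PRR9 ran from -1.40 to 0.24, MET from -0.027 to 0.094 (-0.11 with equal cells), COL6A5 from -0.65 to 0.11 and SDC2 from -0.17 to 0.26 (0.019 in G1). Between wells CST1 ran from -0.33 to 0.094, and NMRK2 was at 0.042 with equal cells.

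For the difference between cluster 9 and other cells, COL6A5 ran from -1.12 to 0.099 over left-out libraries with TGFB1, from -0.54 to 0.34 with TGFBRi and from -1.0 to 0.19 with PI3Ki. With TGFBRi CST1 ran from -0.064 to 0.35 and was at -0.11 without the block and -0.24 in G1, and CST4 was at -0.19 in G1. With PI3Ki CST4 ran from -0.82 to 0.26 and NMRK2 from -0.22 to 0.056, and in G1 MET was at 0.12, NMRK2 at 0.37 and SDC2 at 0.015. NMRK2 with TGFB1 was at -0.059 with as many other cells as cluster 9 cells. In the first experiment 6 markers were highest in cluster 10 over all wells, with COL6A5 level with its cluster 9, 6 in the r1 wells and 4 in the r2 wells.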

Other observations

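Gene groups not described above are given as counts of members higher and lower in cluster 9 than in the other non-primed cells in all 8 libraries, beside 6.41% and 13% of all genes. Among G1 cells 734 of 12909 genes were higher and 780 lower in all 8 libraries. ERK output genes had 0 higher and 5 lower of 14 (median log2 ratio -0.23), among them IER3 (-0.56), SPRED1 (-0.51), ETV1 (-0.50) and SPRY2 (-0.21), while ETV4 (0.12) and ETV5 (0.21), also driven by ERK, did not stay on 1 side. Among G1 cells the ERK list had 1 higher and 4 lower, with a median of -0.08. PI3K and FOXO feedback genes had 0 higher and 5 lower of 11 (median -0.33), among them the insulin receptor INSR (-0.91), its substrate IRS2 (-0.72) and TXNIP (-0.52). AP-1 factors had 0 higher and 2 lower of 8, FOSL1 (-1.53) and JUND (-0.52). YAP targets had 0 higher and 2 lower of 5, CCN2 (-1.32) and AMOTL2 (-0.50).

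Neural crest and epithelial-mesenchymal transition factors had 0 higher and 3 lower of 7 (median -0.42), SNAI2 (-1.04), cadherin 2, CDH2 (-0.92), and TWIST1 (-0.55). ID genes were split, with ID3 (0.96) and ID1 (0.47) higher and ID4 (-1.02) lower of 4. TGF-beta target genes had 1 higher and 2 lower of 9 (median -0.52). Interferon genes had 2 higher and 2 lower of 8 (median 0.07), the lower ones being IFIT1 (-0.96) and IFIT3 (-0.95). Among G1 cells, beside 734 and 780 of 12909 genes, ID genes had 2 higher and 0 lower, TGF-beta target genes 1 and 1 and interferon genes 1 and 1 (median 0.01). ATF4 stress genes had none on 1 side in all 8 libraries, and 1 lower among G1 cells. Within cluster 9, 3 of 6 ATF4 stress genes tested fell with PI3Ki in edgeR's quasi-likelihood test, namely PHGDH (-0.41), PSAT1 (-0.50) and DDIT3 (-0.51), beside 4.94% of all genes called in either direction. Between the wells 3 of 12 mitotic genes were higher in r2 (3.21% of all genes called), TOP2A (0.63), CCNB1 (0.40) and MKI67 (0.35).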
